A study of Mus musculus with 35 samples.

Results

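Liver and lung metastases grown from the same type of mouse pancreatic cancer cell were compared in the libraries labelled Smad4 off. The comparison holds 12 of the 35 libraries of the series, 4 from liver (1 of day 7 and 3 of day 14) and 8 from lung (4 of each day), chosen by the organ and label in their titles. The other liver library of day 7 was left out because it was labelled paired-end and held pancreatic acinar RNA. Each library is mKate2-positive, DAPI-gated sorted cells of 1 mouse, sequenced as poly(A) RNA. All came from KC-shSmad4 cells, lines derived from primary tumors of mice with Ptf1a-Cre, an rtTA3 and mKate2 reporter allele and a doxycycline (Dox)-inducible shRNA against *Smad4* linked to GFP, and transduced with luciferase.

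The hosts of every group were female athymic nude (Foxn1nu) mice, 6 to 8 weeks old, kept on Dox in the groups labelled off. Liver metastases followed injection of 400000 cells into the spleen and its removal, with day 0 at 5 weeks. Lung metastases followed injection of 250000 cells into the tail vein, with day 0 at 6 weeks. Route, cell number, time since injection and organ therefore cannot be told apart. The study used several cell lines, and the labels do not say which line each mouse received. Because Dox induces the shRNA, the label off stands for silenced *Smad4*, yet *Smad4* mRNA went against it. It ran at 77.9 to 132 CPM (the count on a gene scaled by the total count on genes of its library) in the 12 libraries labelled off and at 14.4 to 20.6 CPM in the 12 liver and lung libraries labelled on. Within the labelled off libraries, *Smad4* was at 84.5, 132, 92.6 and 101 CPM in liver (day 7, then mice 1 to 3 of day 14) and at 77.9 to 128 CPM in lung. The groups overlapped, and the log2 fold change was 0.05 ± 0.15 (SE, edgeR adjusted p = 0.892). The libraries are named by their labels throughout.

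As background, pancreatic ductal adenocarcinoma is a carcinoma of ductal type cells marked by keratins 8, 18 and 19, and it spreads mostly to liver and lung. Simple ductal epithelium has a single cell layer, whereas basal and stratified epithelium, as in skin, is marked by keratins 5, 14, 15 and 17 and the transcription factor p63. Liver parenchyma consists mainly of hepatocytes, which secrete albumin and most acute-phase and complement proteins, and lung alveoli are lined by type 1 cells and by surfactant-secreting type 2 cells. In sorted cells a host gene can be read from carried-over host cells or free RNA as well as from the tumor cell, and in bulk libraries fewer cells of a type and less RNA per cell cannot be told apart.

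The 12 libraries held 12092573 to 43571007 counts on genes, 19468806 or more in each liver library and 25413164 or fewer in each lung library. A floor of 3 counts lay at 0.0689 to 0.248 CPM per library, for counting error only. Among 15152 genes tested with day as a covariate, 98 were called higher in liver (0.647%) and 283 higher in lung (1.87%), 381 in all (2.51%), where called means a fold over 2 and an adjusted p under 0.05 in edgeR's quasi-likelihood test. A fit blocked on mouse number made 61 calls toward liver, 49 of them among the 98, and 217 toward lung, 190 of them among the 283. The median log2 fold change of all genes tested was -0.01. Log2 fold changes are liver over lung from that fit, and p-values measure the spread between mice. Counts on the mitochondrial gene *mt-Co3* were present in 4 of the 12 libraries (liver mouse 3 of day 14 and 3 lung libraries) and absent in the other 8.

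To separate host RNA from tumor genes, marker lists of cell types were read in each library, beside 5 primary tumor libraries labelled off, in which no liver or lung tissue is present. Lung RNA was plain in the lung libraries. Of the 12 alveolar type 2 markers tested, 8 were called higher in lung and 0 in liver, against 1.87% and 0.647% of all genes. *Sftpc*, which encodes surfactant protein C (chr14:70520949-70524081, GRCm38), was at 0.023, 0, 0 and 0.257 CPM in liver and at 37.8 to 242 CPM (median 104) in lung, and it had no counts in the primary tumors. *Sftpa1*, surfactant protein A, and *Scgb1a1*, the club cell secretoglobin, had 0 counts over the 4 liver libraries and 5.4 to 57.1 and 5.53 to 54 CPM in lung. Against a floor of 3 counts over the liver group they were at least 991-fold and at least 972-fold higher in lung. *Sftpb* had 1 count in liver and 3090 in lung, a ratio of 2690 with a 95% counting interval of 482 to 106000. *Nkx2-1*, a transcription factor of lung epithelium, had 0 counts in liver and 103 in lung, at least 29.9-fold higher. The type 1 marker *Ager* was at 0.462 to 1.3 CPM in liver and 6.21 to 20.8 CPM in lung.

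The same lists did not hold throughout as host markers. *Sftpd*, surfactant protein D, was at 34.6 to 118 CPM in liver and 50.4 to 115 CPM in lung, and *Abca3*, a lipid transporter of type 2 cells, at 76.4 to 123 and 96.9 to 162 CPM. Both were also present in every primary tumor library, at 6.9 to 19.6 and 69.8 to 109 CPM. Both were thus read in tumors grown outside the lung.

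Lung libraries also held endothelial RNA. Of 10 pan-endothelial markers tested, 9 were called higher in lung, against 1.87% of all genes. Their median log2 fold change was -3.15, against -0.01 over all genes. *Pecam1*, an adhesion molecule of vessel lining, was at 0.734, 0.913, 0.94 and 2.26 CPM in liver and 4.13 to 16.1 CPM in lung, with 3.63 to 6.09 CPM in the primary tumors. *Cldn5*, an endothelial tight junction protein, was at 0.111 to 0.36 CPM in liver and 2.09 to 12.5 CPM in lung. *Vwf* was at 0.115 to 1.13 against 1.63 to 19.6 CPM. In lung stroma, *Inmt*, a methyltransferase of lung fibroblasts, was at 0.0376 to 0.154 CPM in liver and 12.1 to 48.6 CPM in lung. The 5 called airway genes, 4 called type 1 genes and 5 called lung endothelial genes were likewise all higher in lung. They were out of 8, 8 and 9 tested, against 1.87% of all genes.

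Liver RNA was scarcer. *Alb*, serum albumin, was at 1.65, 0.775, 9.14 and 12.5 CPM in liver and at 0 to 0.496 CPM in lung. It was the single hepatocyte marker called higher in liver out of 19 tested, against 0.647% of all genes. The Kupffer cell markers *Clec4f* and *Cd5l* reached 0.462 and 0.565 CPM in liver. *Marco*, on the same list, reached 0.194 CPM in liver and 0.73 CPM in lung. Of the 6 Kupffer markers, 0 passed the filter for testing. Their sums overlapped, at 0.23 to 1.28 CPM in liver and 0 to 0.886 CPM in lung. *Clec4f* had 19 counts over the liver group and 0 over the lung group, at least 7.28-fold higher. *Alb* is among the most abundant hepatocyte transcripts. *Hp* and *Itih4*, also on the hepatocyte list, were called in the opposite direction, higher in lung, and are described below. The median log2 fold change of the hepatocyte list was -0.01. Of 6 liver endothelial markers tested, 0 were called higher in liver and 2 higher in lung, against 0.647% and 1.87% of all genes. Their median log2 fold change was 0.07. This list summed to 6.06 to 9.03 CPM in liver and 6.77 to 16.6 CPM in lung. The plot of marker list levels shows the alveolar type 1, alveolar type 2 and pan-endothelial lists apart by organ and the hepatocyte list overlapping.

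**Figure D1:**
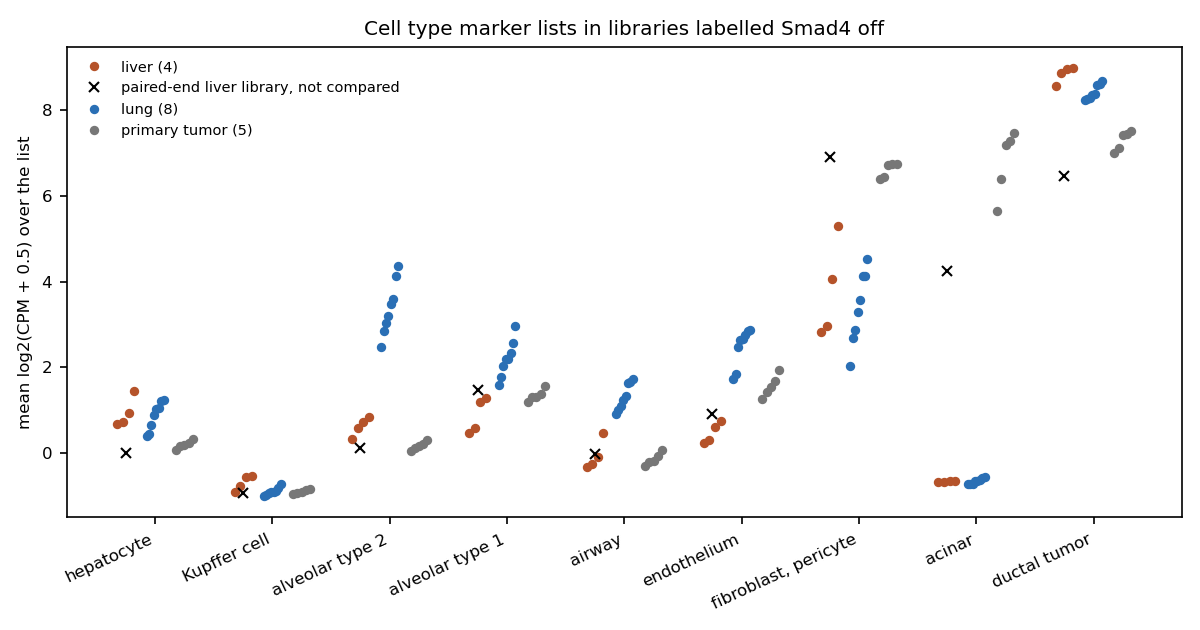
Mean log2(CPM + 0.5) over each cell type marker list, on the vertical axis, in the 4 liver, 8 lung and 5 primary tumor libraries labelled Smad4 off, 1 point per library, with the paired-end liver library as a cross. The alveolar type 2 list lies at 0.34 to 0.84 in liver and 2.48 to 4.37 in lung, whereas the hepatocyte list overlaps at 0.68 to 1.46 and 0.4 to 1.23.

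The ductal tumor list was at 8.57 to 8.98 in liver and 8.25 to 8.69 in lung (mean log2 level), with *Krt19* at 2780 to 3660 and 1540 to 3100 CPM. The label of tumor cells is thus met by its defining keratin in all 12 libraries, and *Krt8* averaged 4420 ± 501 (SD) CPM in liver and 3510 ± 1530 CPM in lung. Fibroblast RNA varied within each organ, with *Col1a1* at 56.7, 39.5, 689 and 378 CPM in liver and 29.5 to 364 CPM in lung, far under the 3280 to 5290 CPM of the primary tumors. Of 10 fibroblast and pericyte markers tested, 9 had log2 fold changes above 0, with a median of 1.24 toward liver. In each direction 1 was called, against 0.647% of all genes higher in liver and 1.87% higher in lung. Acinar RNA was low in all 12, at 5.37 to 14.7 summed CPM over 18 markers, against 1480 to 5230 in the primary tumors. Myeloid, stellate, mesothelial and alveolar macrophage markers gave 0 calls in either direction at 16, 4, 4 and 8 genes tested, against 2.51% of all genes. In lists this small, 0 calls lie near that share. Lymphoid and antigen-presenting markers also gave 0 calls, but all 4 and all 5 genes tested had log2 fold changes under 0, with medians of -1.58 and -1.25. Lymphoid markers summed to 1.49 to 6.73 CPM in liver and 6.32 to 59 CPM in lung, and antigen-presenting markers to 29.3 to 112 and 59.1 to 271 CPM. Of 8 erythroid and platelet markers, 7 were under 0 (median -1.42). *Itga2b*, the platelet integrin, was called higher in lung (1.33 to 1.54 against 2.15 to 3.7 CPM), but not with the replicate block (adjusted p = 0.0748) and not in 15 of 25 other settings. *Xist*, which is transcribed from the inactive X chromosome of female cells, was at 2.75 to 4.4 CPM in liver and 3.66 to 23.5 CPM in lung (log2 fold change -1.2 ± 0.51, adjusted p = 0.199). The Y-linked *Ddx3y* and *Uty* had 0 counts in all 12 libraries; the study states that the lines came from male tumors and the hosts were female.

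The called genes were then split by these readings. Of the 98 genes higher in liver, 2 were in a host list (*Alb* and the pericyte gene *Rgs5*, the latter not called with the replicate block, adjusted p = 0.111), 64 of the others reached at least 1 CPM in each of the 5 primary tumor libraries, and 32 did not. Of the 283 genes higher in lung, the 3 classes held 39, 120 and 124 genes. With the replicate block, 38 genes in place of the 64 were called. The primary tumor libraries hold stroma as well, so a level there does not show tumor origin. The endothelial genes *Cd93*, *S1pr1* and *Eng* fall in the class of 120, averaging 1.31, 0.711 and 3.34 CPM in liver and 6.95, 5.35 and 9.68 CPM in lung. The class of 124 held transcription factors of lung mesenchyme outside the host lists, *Foxf1* (0.308 to 0.858 CPM in liver, 1.26 to 4.43 in lung, adjusted p = 0.0614 with the replicate block), *Tbx4* and *Tbx5* (0 counts in liver, 1.52 and 0.523 CPM on average in lung). In the primary tumors the mean log2 level was nearer to liver for 38 of the 64 liver genes and nearer to lung for 63 of the 120 lung genes, so neither organ was nearer to the primary tumor throughout.

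**Figure D2:**
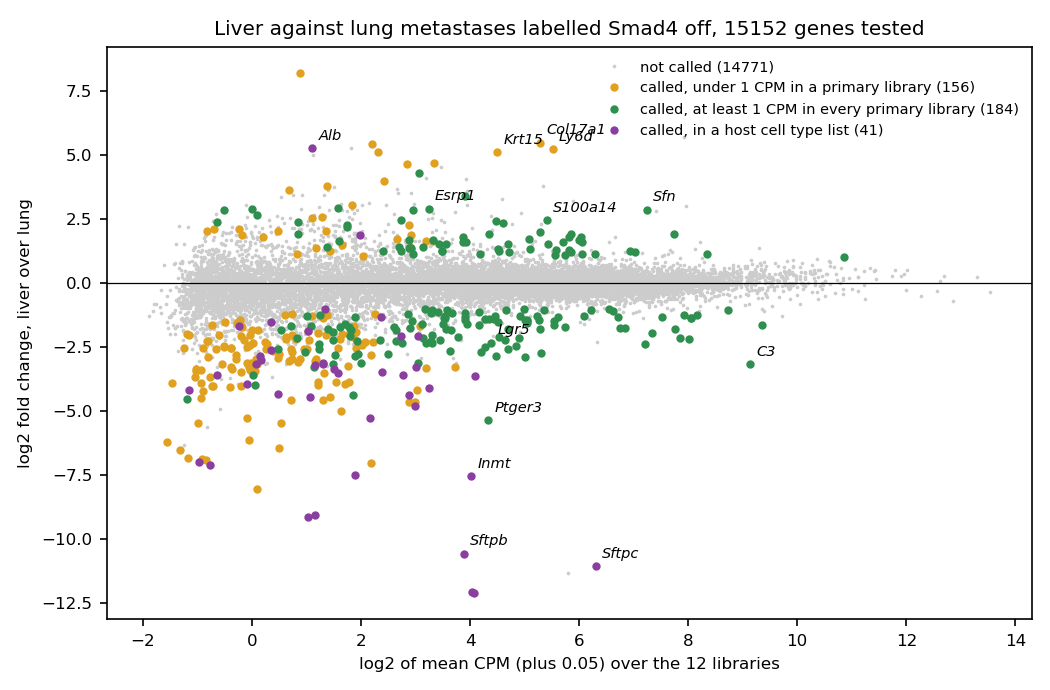
Log2 fold change of liver over lung on the vertical axis against the log2 of the mean CPM (plus 0.05) over the 12 libraries on the horizontal axis, 1 point per gene for 15152 genes tested. Coloured points are the 381 called genes by class, and the called genes farthest below 0 are host list genes such as *Sftpc* at -11.06.

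Among genes higher in liver with a primary tumor level, *Esrp1* had the lowest adjusted p. The 12 leading genes of each direction were chosen among genes whose organs do not overlap, so that feature is a description. *Esrp1*, a splicing factor that maintains epithelial isoforms (chr4:11331933-11386783), was at 9.62, 15.9, 23.4 and 41.4 CPM in liver and 1.88 to 4.25 CPM (median 2.54) in lung. Every liver library exceeded every lung library, and the primary tumors lay with the lung at 1.19 to 4.19 CPM. Its log2 fold change was 2.92 ± 0.36 with an adjusted p of 0.00194 in edgeR. *S100a14*, a calcium-binding protein of epithelia (chr3:90526856-90528837), was at 74.7, 77.1, 107 and 124 CPM in liver and 8.76 to 36.9 CPM in lung (2.47 ± 0.33, adjusted p = 0.00317). *Cldn7*, a tight junction claudin, was at 113, 90.9, 155 and 118 CPM against 18.4 to 62.7 CPM (1.79 ± 0.25, adjusted p = 0.00424). *Perp*, a desmosome protein and p53 target, was at 130, 219, 182 and 293 CPM against 66.9 to 123 CPM. Liver libraries lay above all lung libraries in 0.766% of all genes tested, and in 25 of these 64 called genes, a share that the test itself favors.

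Of 39 junction and polarity genes tested, 4 were called higher in liver (*Esrp1*, *Cldn7*, *Ovol1* and *Cldn4*) and 0 in lung, against 0.647% and 1.87% of all genes, with a median log2 fold change of 0.16. *Cldn4*, another claudin, was at 178, 169, 361 and 1030 CPM in liver and 66 to 149 CPM in lung, so that liver mouse 3 of day 14 stood far above the others. The call of *Cldn4* was lost in 12 of the 25 other settings run, among them leaving out liver day 7, liver mouse 2 of day 14 or any 1 of the 4 lung libraries of day 14. *Rab25*, a GTPase of epithelial recycling endosomes, was at 9.96, 7, 12.8 and 42.8 CPM against 1.26 to 4.07 CPM. *Cdh1* (E-cadherin) did not pass the test, at 831 ± 200 (SD) CPM in liver and 778 ± 76.6 CPM in lung. *Epcam*, an epithelial adhesion molecule, did not pass either, at 284 to 601 CPM against 151 to 374 CPM (0.98 ± 0.26, adjusted p = 0.0566).

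The other leading genes higher in liver were of mixed function. *Lama3*, a laminin chain of epithelial basement membrane, was at 65.5, 177, 95.1 and 87.7 CPM in liver and 14.8 to 43.7 CPM in lung. *Car9*, a hypoxia-induced carbonic anhydrase, was at 59.4, 175, 137 and 81.3 CPM against 18.8 to 45.1 CPM (1.91 ± 0.32, adjusted p = 0.0123). *Aim2*, a sensor of cytosolic DNA, was at 14.3 to 26.8 against 3.65 to 11.4 CPM. *Mcpt2*, a protease known from mucosal mast cells, was at 79.2 to 157 CPM in liver and 22.3 to 68.5 CPM in lung. *Syt8*, a synaptotagmin, was at 32.4 to 59.6 against 9.32 to 24.3 CPM.

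A further group was highest in the primary tumors. *Htra1*, a secreted protease, was at 46.3 to 91.4 CPM in liver, 19 to 43 CPM in lung and 224 to 472 CPM in the primary tumors. *Khdrbs3*, an RNA-binding protein, was at 14.3 to 21.5, 3.12 to 11 and 42.2 to 92.5 CPM, and *Nexn*, an actin-binding protein, at 5.5 to 9.67, 2.81 to 4.79 and 18.7 to 27.1 CPM. *Prrx1*, a mesenchymal transcription factor, was at 6.27, 43.8, 74.9 and 21.3 CPM in liver, 1.63 to 11.7 CPM in lung and 103 to 192 CPM in the primary tumors. *Fgfr1*, a growth factor receptor, was at 43 to 152, 6.38 to 39.1 and 371 to 595 CPM. Fibroblast and pericyte markers summed to values in the same order, and were at 199 to 3020 CPM in liver, 144 to 2100 in lung and 11000 to 13700 in the primary tumors. The part of fibroblast RNA in these differences was not tested. Of 22 mesenchymal transition genes tested, 2 were called higher in liver (*Prrx1* and *Tpm2*) and 0 in lung, against 0.647% and 1.87% of all genes. The call of *Tpm2* was lost in 8 of 25 other settings. *Vim* was not called (0.51 ± 0.28, adjusted p = 0.334). With the replicate block, *Prrx1* (adjusted p = 0.0933) and *Fgfr1* (adjusted p = 0.0669) lost their calls.

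**Figure D3:**
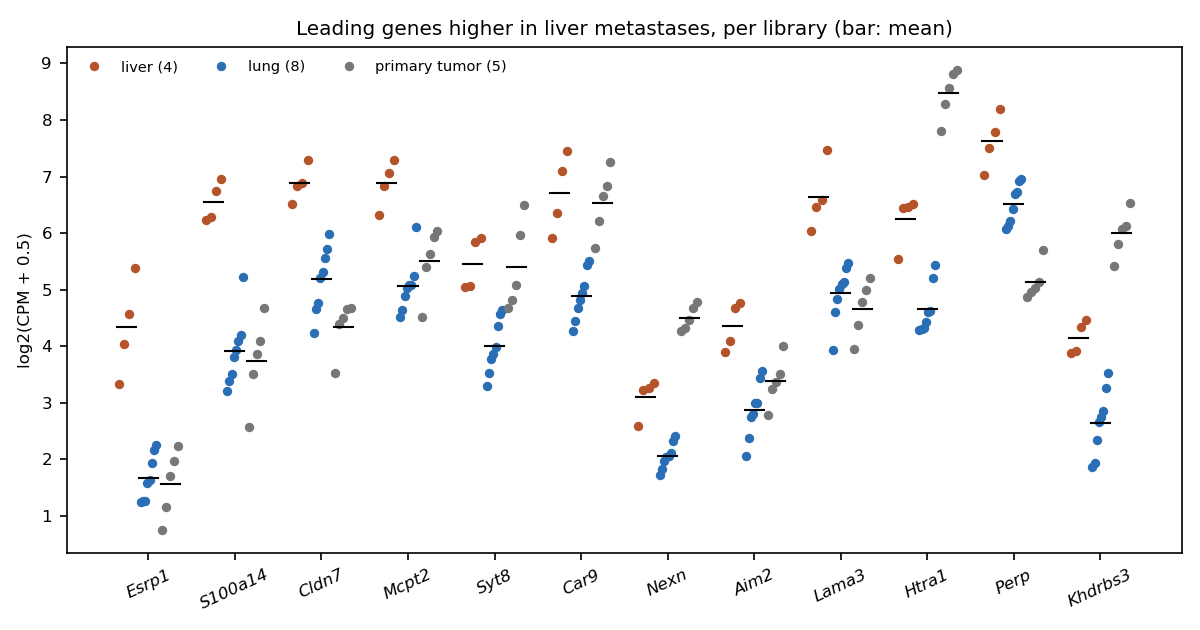
Log2(CPM + 0.5) of the 12 leading genes higher in liver that have a primary tumor level, 1 point per library, with bars at the mean of the 4 liver, 8 lung and 5 primary tumor libraries. The liver points lie above all lung points for each gene, as in *Esrp1* at 9.62 to 41.4 against 1.88 to 4.25 CPM, while the primary tumors lie at or near the lung for some genes and above both organs for *Htra1*, *Khdrbs3* and *Nexn*.

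By mean level, the leading genes higher in liver with a low primary tumor level included *Ly6d*, *Col17a1*, *Krt15* and *Trim29*, all known from basal or stratified epithelium. The 48 gene lists hold no list of such genes. They are therefore described 1 by 1, and whether they are enriched as a group was not tested. *Ly6d*, a surface protein of stratified epithelium, was at 33.5, 17, 67.9 and 407 CPM in liver and 1.34 to 6.38 CPM in lung (5.25 ± 0.8, adjusted p = 0.0076). *Col17a1*, the hemidesmosome collagen, was at 16, 9.63, 34.4 and 396 CPM against 0.156 to 3.78 CPM (5.49 ± 1.07, adjusted p = 0.021). *Trim29*, a gene of stratified epithelium, was at 1.97, 1.16, 4.29 and 74 CPM against 0.331 to 0.979 CPM. *Ovol1*, an epithelial transcription factor, was at 2.85 to 46 CPM against 0.165 to 1.34 CPM. For *Ly6d*, *Col17a1*, *Trim29* and *Ovol1* every liver library lay above every lung library, and in each the same library, mouse 3 of day 14, was highest. That mouse is the liver library with *mt-Co3* counts. Within lung, *Col17a1* was at 2.75 to 3.78 CPM in the 3 libraries with *mt-Co3* counts and 0.156 to 1.65 CPM in the other 5. *Ly6d*, *Trim29* and *Ovol1* overlapped between these lung subsets.

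*Defb1*, an antimicrobial defensin of epithelia noted after its values were seen, averaged 5.38 CPM in liver and 0.00583 CPM in lung. The lung mean lay under the floor of 3 counts over the lung group (0.0208 CPM). Its fitted log2 fold change of 8.22 ± 1 (edgeR adjusted p = 0.00188) is therefore not an exact value and is not ranked. *Krt15* overlapped between the organs, at 8.49, 1.41, 9.37 and 241 CPM in liver and 0.261 to 2.36 CPM in lung (5.13 ± 1.16, adjusted p = 0.0356). Further genes known from such epithelium were looked up after their values were seen, so they add no test of a group. *Sfn*, which encodes stratifin, was at 123, 89.5, 243 and 1010 CPM against 25.7 to 59.8 CPM (2.88 ± 0.58, adjusted p = 0.0229). *Pkp1*, a desmosomal plakophilin, was at 16.4 to 84.7 against 5.92 to 13.5 CPM (adjusted p = 0.0622 with the replicate block, where its call was lost), and *Krt17* at 0.553 to 42.3 against 0 to 0.977 CPM. *Krt5* was at 110, 25.1, 166 and 2550 CPM in liver and 0.258 to 33.6 CPM (median 1.86) in lung, and did not pass the test (5.72 ± 1.6, adjusted p = 0.0661). *Trp63* did not pass either (3.53 ± 1.03, adjusted p = 0.0762), nor did *Krt14* (0.89 ± 1.08, adjusted p = 0.698). Within lung, *Krt5* was at 18.8 to 33.6 CPM with *mt-Co3* counts and 0.258 to 1.98 CPM without. *Krt14* was at 38.8 to 170 and 13.5 to 35.5 CPM, and *Krt15* at 2.1 to 2.36 and 0.261 to 0.957 CPM. *Pkp1* went the other way (5.92 to 8.77 and 8.8 to 13.5 CPM), and *Sfn*, *Krt17* and *Trp63* overlapped. The cause of this split was not tested. Without liver mouse 3 of day 14, *Krt5* had a log2 fold change of 3.29 (adjusted p = 0.105), *Trp63* 1.14, *Krt15* lost its call and *Krt14* turned to -1.14. Without that library *Ly6d*, *Col17a1* and *Sfn* stayed called, at smaller log2 fold changes of 3.74, 3.53 and 1.8. Within the libraries without *mt-Co3* counts (3 liver and 5 lung), the differences in mean log2 level of *Ly6d*, *Col17a1* and *Sfn* were 3.51, 4.13 and 1.88. For *Krt5*, *Krt15*, *Krt17* and *Ovol1* they were 5.73, 2.43, 2.36 and 2.22. They were smaller for *Trim29*, *Trp63* and *Krt14*, at 1.6, 0.96 and 0.05. Without lung mouse 1 of day 14, *Col17a1* and *Sfn* lost their calls. Without the liver library of day 7, *Col17a1* (6.03, adjusted p = 0.0534), *Krt15* (5.7, adjusted p = 0.0758) and *Krt17* (6.19, adjusted p = 0.0598) lost their calls. Over all 24 other settings run, *Krt15* lost its call in 12, *Trim29* and *Krt17* in 9 each and *Ovol1* in 5, and the log2 fold change of *Trim29* ranged from 2.22 to 5.34.

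The same genes were read in liver and lung libraries labelled on, which are other mice of the same routes, with low *Smad4* mRNA (6 of each organ). There *Krt5* was at 238 to 4540 CPM in liver and 0 to 9.69 CPM in lung (7.92 log2, adjusted p = 0.00148), and *Trp63* at 7.98 to 144 against 0.645 to 2.48 CPM (4.85, adjusted p = 0.00166). *Ly6d*, *Col17a1*, *Krt15* and *Krt17* had log2 fold changes of 5.92, 7.64, 7.22 and 7.98 and were called in these libraries too, where 592 genes were called higher in liver (4.09% of 14483) and 617 higher in lung (4.26%), 1209 in all (8.35%). Of the 64 liver genes with a primary tumor level, 62 were tested there, 52 had the same sign and 32 were called in the same direction. Of the 120 lung genes, 119 were tested, 119 had the same sign and 71 were called. In one model of all 24 libraries, edgeR called 0 of 16163 genes for an organ difference that changed with the label. Its lowest adjusted p was 0.092, and 2229 genes were at an unadjusted p under 0.05. DESeq2 called 175.

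**Figure D4:**
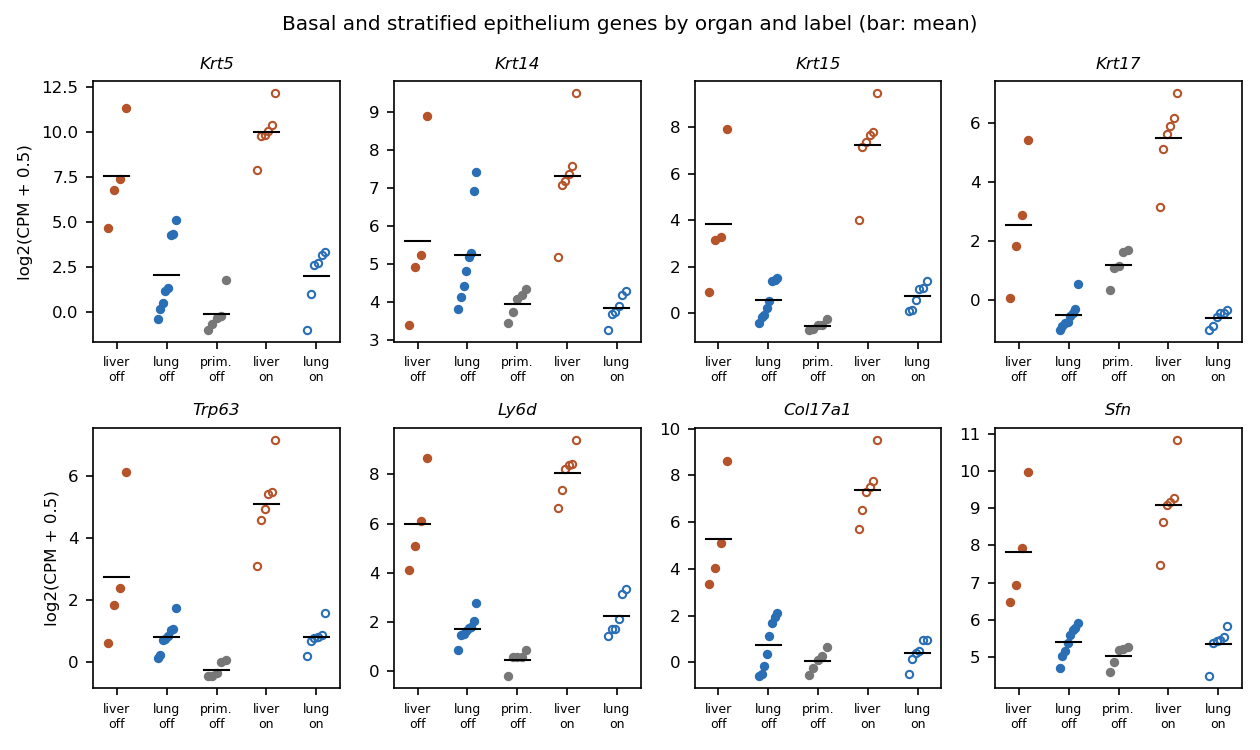
Log2(CPM + 0.5) of 8 genes known from basal and stratified epithelium, not a list fixed beforehand, 1 point per library. Liver, lung and primary tumor libraries labelled off are filled and liver and lung libraries labelled on are open, with bars at the mean. Liver mouse 3 of day 14 is the highest filled liver point in each panel, for *Krt5* at 2550 CPM against 25.1 to 166 CPM in the other liver libraries.

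The promoter of *Col17a1*, one of the genes of low primary tumor level, is shown because it carries the letters TGTGGT, the core of sequences bound by RUNX factors, a family the study examined. *Htra1*, also higher in liver, carries the same letters, and *Tfr2*, higher in lung, carries GGGTGTGG, letters of the kind bound by KLF factors. The letters did not sort by organ among the named genes, since *Nfasc* and *Sftpa1*, higher in lung, carried the RUNX letters, and *Syt8*, higher in liver, carried both motifs in separate promoters. The sequences are from RefSeq (GRCm38.p6), from 250 bases before to 50 after a start site, 5′ to 3′ on the gene's strand, with the searched letters in capitals.
Col17a1, chr19:47691993-47692292, minus strand: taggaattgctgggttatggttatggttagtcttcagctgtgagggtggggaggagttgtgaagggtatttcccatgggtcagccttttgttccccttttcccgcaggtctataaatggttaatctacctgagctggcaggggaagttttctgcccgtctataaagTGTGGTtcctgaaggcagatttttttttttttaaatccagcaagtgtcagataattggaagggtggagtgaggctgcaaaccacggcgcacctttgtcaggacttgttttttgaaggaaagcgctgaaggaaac
Htra1, chr7:130935953-130936252, plus strand: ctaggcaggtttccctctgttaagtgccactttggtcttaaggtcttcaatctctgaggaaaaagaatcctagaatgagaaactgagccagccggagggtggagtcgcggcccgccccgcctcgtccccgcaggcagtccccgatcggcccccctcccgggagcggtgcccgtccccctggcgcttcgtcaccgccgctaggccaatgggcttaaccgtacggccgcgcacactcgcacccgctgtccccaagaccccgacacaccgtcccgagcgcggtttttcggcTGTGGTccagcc
Tfr2, chr5:137569590-137569889, plus strand: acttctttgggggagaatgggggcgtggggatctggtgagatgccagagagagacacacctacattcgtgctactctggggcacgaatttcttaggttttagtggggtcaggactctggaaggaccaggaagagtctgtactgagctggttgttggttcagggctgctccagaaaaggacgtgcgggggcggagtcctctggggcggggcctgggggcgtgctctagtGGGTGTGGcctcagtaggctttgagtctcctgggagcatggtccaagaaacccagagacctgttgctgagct
Both motifs were searched on both strands, as 6 and 8 fixed letters, of which 5 in a row are shared. The shorter motif was present in 10 of 42 promoters (23.8%) of the 34 matched genes of the 64 higher in liver, in 12 of 107 (11.2%) of the 78 matched genes of the 120 higher in lung, in 12.9% of the 13881 promoters of genes tested and in 16.8% of all 32851 promoters. GGGTGTGG was present in 2.38%, 1.87%, 3.85% and 3.56% of the same sets. These shares are a description of letters in the windows listed.

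The mRNA of the factors themselves was also read. *Klf4* was at 152, 311, 382 and 293 CPM in liver and 204 to 342 CPM in lung (0.14 ± 0.21, adjusted p = 0.759), *Klf5* at 147 to 224 and 177 to 228 CPM, and *Klf6* at 847 to 1130 and 778 to 1460 CPM. Of the KLF and RUNX families, 0 of 15 and 0 of 4 genes tested were called, against 2.51% of all genes in either direction. In families this small, 0 calls lie near that share. *Runx1* was at 101, 110, 85.4 and 95.7 CPM in liver and 120 to 160 CPM in lung, without overlap, at a log2 fold change of -0.42 ± 0.14 that did not pass the test (adjusted p = 0.0979). *Runx3* was at 5.2 to 14.6 against 8.46 to 21.3 CPM (-0.82 ± 0.26, adjusted p = 0.0979), and *Runx2* at 26 to 72.9 against 38.5 to 56.6 CPM.

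Among genes higher in lung with a primary tumor level, *Cacna1h*, a T-type calcium channel (chr17:25374285-25433783), was at 1.56, 1.05, 0.715 and 0.77 CPM in liver and 4.88 to 10.1 CPM (median 7.97) in lung (-2.78 ± 0.28, adjusted p = 0.00122). *Nav2*, a neuron navigator (chr7:48908716-49610090), was at 18.7, 17.3, 17.6 and 22.5 CPM against 44.9 to 97.3 CPM (-1.73 ± 0.18, adjusted p = 0.00122). *Ptger3*, a prostaglandin E2 receptor (chr3:157566892-157645888), was at 0.23, 0.332, 0.376 and 1.64 CPM against 13.2 to 51.2 CPM. Its log2 fold change of -5.35 ± 0.61 was the largest toward lung among the 12 leading genes, and the primary tumors, at 1.33 to 4.41 CPM, overlapped the highest liver library. *Tifa*, an adaptor of innate immune signaling, was at 4.87 to 11.4 against 28.4 to 88.5 CPM, and *Trpm6*, a magnesium channel, at 2.52 to 5.87 against 15.3 to 43.6 CPM. For *Nav2* the primary tumors lay between the organs at 25.6 to 42.5 CPM, for *Tifa* and *Trpm6* they overlapped the liver at 7.15 to 12.3 and 4.13 to 7.11 CPM, and for *Cacna1h* they overlapped the lung at 4.41 to 20.2 CPM.

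*Sod3*, extracellular superoxide dismutase, was at 6.7, 4.43, 8.95 and 7.81 CPM in liver and 23.7 to 50 CPM in lung, and *Abi3bp*, a matrix protein, at 0.0514 to 0.113 against 0.669 to 2.27 CPM. *Nfasc*, a neurofascin, was at 0.166 to 0.321 against 1.65 to 9.51 CPM, *Tmeff2*, a transmembrane protein, at 2.41 to 5.42 against 9.37 to 24.5 CPM, and *Olfm1* at 0.304 to 0.564 against 1.5 to 4.31 CPM. Lung endothelial and stromal lists were higher in the same libraries, and their part in these genes was not tested.

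Of 23 complement and acute-phase genes tested, a group known as products of the liver, 10 were called higher in lung, 0 were called higher in liver and 13 did not pass the test, against 1.87% and 0.647% of all genes called in each direction. Of the 23, 4 had a log2 fold change above 0, and the median was -1.63. The lung libraries also held more alveolar type 2 (8 of 12 called), endothelial (9 of 10) and lung fibroblast markers (2 of 6), and the antigen-presenting median was -1.25. The part of host RNA in the complement genes was not tested. *C3*, the central complement component, was at 68.9, 29.4, 81.4 and 147 CPM in liver and 270 to 1840 CPM (median 682) in lung (-3.16 ± 0.61, adjusted p = 0.0198). *C4b* was at 10, 36.8, 56.8 and 58.7 CPM against 117 to 253 CPM (-2.38 ± 0.41, adjusted p = 0.0133). The classical pathway protease genes *C1ra* and *C1s1* were at 2.71 to 6.27 against 7.56 to 24.2 CPM and 0.639 to 1.85 against 2.94 to 21.2 CPM. No liver library reached a lung library in any of these 4 genes. That pattern was found in 3.58% of all genes tested and in 85.9% of the genes called higher in lung, which the test itself favors.

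*Itih4*, an inter-alpha-trypsin inhibitor chain, was at 0.895, 1.25, 2.33 and 3.29 CPM in liver and 9.64 to 34.2 CPM in lung (-3.63 ± 0.42, adjusted p = 0.0017). *Lbp*, which binds lipopolysaccharide, was at 74.7 to 96.6 against 134 to 344 CPM, *Cp*, the copper carrier ceruloplasmin, at 142 to 310 against 364 to 1250 CPM, and *Lrg1*, a secreted glycoprotein, at 0.987 to 6.66 against 14.7 to 44.6 CPM. *Hp*, haptoglobin, was at 1.06 to 3.5 against 4.17 to 21.9 CPM. *Steap4*, a metalloreductase, overlapped at 1.15 to 3.49 against 3.42 to 21.4 CPM. *Lbp*, *Cp*, *C3* and *C4b* were at 60.9 to 104, 194 to 313, 76.1 to 141 and 41 to 112 CPM in the primary tumors, under every lung library. Lung libraries with *mt-Co3* counts were lower than those without for *C3* (270 to 484 against 517 to 1840 CPM), *Cp* and *Lbp*. *C1ra*, *C1s1*, *Hp* and *Steap4* overlapped between these lung subsets. With *mt-Co3* counts (1 liver library), *C3*, *Cp* and *Lbp* differed between organs by -1.18, -0.89 and -0.86 in mean log2 level. Without them the differences were -4.15, -2.26 and -1.71. *Osmr*, a receptor of an acute-phase cytokine, and *Reg3g*, an antimicrobial lectin, were looked up after their values were seen, at 7.75 to 20.4 against 17.5 to 73.8 CPM and 34.8 to 98.7 against 90.9 to 611 CPM. In the libraries labelled on, *C3* was again called (-1.92, adjusted p = 0.0187), whereas *C4b* and *Lbp* were not (-0.86, adjusted p = 0.0597, and -0.47, adjusted p = 0.234). In those libraries, 4 genes of the list were called higher in lung and 3 higher in liver, against 4.26% and 4.09% of all genes tested there. Without the liver library of day 7, 3 of the 10 calls were left (*Itih4*, *C4b* and *Lrg1*), and *C3*, *C1ra*, *C1s1*, *Lbp*, *Cp*, *Hp* and *Steap4* lost theirs, as did *Osmr* and *Reg3g*. Without liver mouse 2 of day 14, 6 were left, and *C3*, *C1s1*, *Hp* and *Steap4* lost theirs. With the replicate block, *Hp* (adjusted p = 0.0651), *Steap4* (0.0589) and *Reg3g* (0.0518) lost theirs.

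Of 32 Wnt pathway genes tested, 3 were called higher in lung and 0 in liver, against 1.87% and 0.647% of all genes. *Lgr5*, an R-spondin receptor and Wnt target (chr10:115450311-115587780), was at 4.64, 5.2, 3.39 and 6.88 CPM in liver and 16.9 to 43.1 CPM in lung (-2.32 ± 0.28, adjusted p = 0.00188), with 15.5 to 26.2 CPM in the primary tumors. *Nkd1*, a Wnt target and inhibitor, was at 0.498 to 1.32 against 2.15 to 5.46 CPM. *Dkk2*, a secreted Wnt modulator, overlapped at 5.8 to 26.8 against 20.1 to 61.7 CPM and stood at the threshold (adjusted p = 0.0489, and 0.0658 with the replicate block), losing its call in 17 of 25 other settings. *Tfr2*, a transferrin receptor of iron sensing, was at 15.2, 11.1, 11.8 and 17.9 CPM against 31.8 to 59.3 CPM (-1.49 ± 0.18, adjusted p = 0.00194). *Tnc*, the matrix protein tenascin C, was at 19 to 53.8 against 79.9 to 268 CPM. *Onecut1*, a hepatic and pancreatic transcription factor, was higher in lung at 0.315 to 1.56 against 0.023 to 0.113 CPM.

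**Figure D5:**
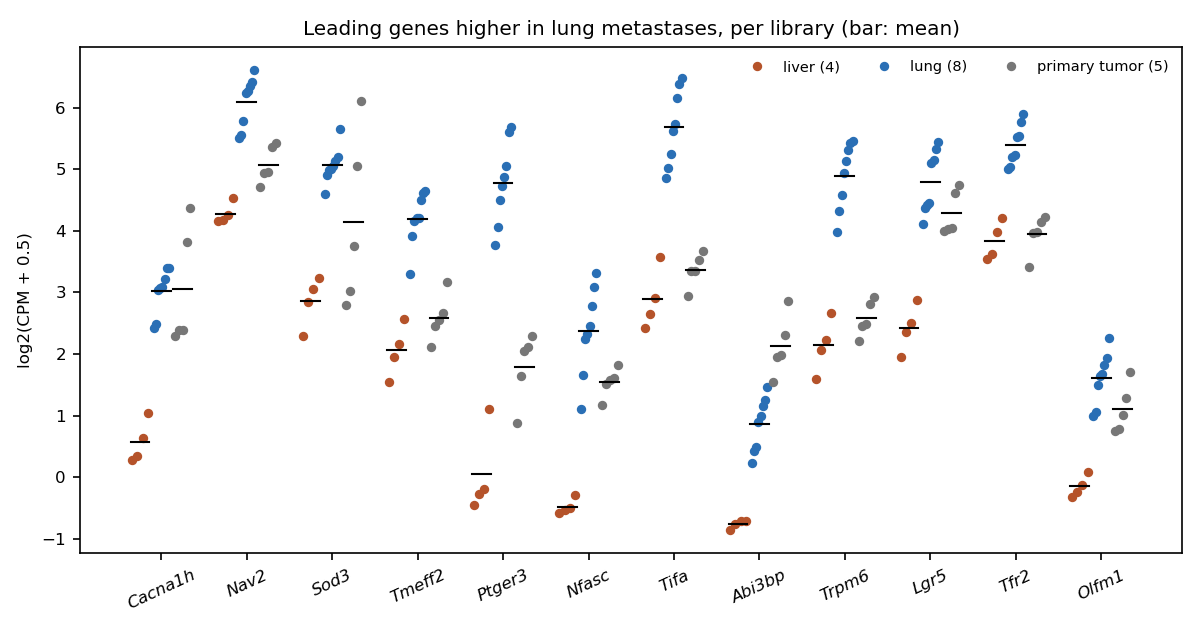
Log2(CPM + 0.5) of the 12 leading genes higher in lung that have a primary tumor level, 1 point per library, with bars at the mean of the 4 liver, 8 lung and 5 primary tumor libraries. All lung points lie above all liver points, and for *Ptger3* the lung lies at 13.2 to 51.2 CPM, the primary tumors at 1.33 to 4.41 CPM and the liver at 0.23 to 1.64 CPM.

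Several programs showed few or no called genes, where 2.51% of all genes were called in either direction. In lists of 20 to 36 genes, 0 calls lie near that share. The G2 and mitosis list had 0 of 35 genes called, although 34 of 35 log2 fold changes were above 0 (median 0.63). *Mki67*, a marker of cycling cells, was at 267, 89.1, 318 and 178 CPM in liver and 119 to 187 CPM in lung, with the liver libraries on both sides of the lung range (0.59 ± 0.23, adjusted p = 0.172). The S-phase list had 0 of 34 called, with 31 log2 fold changes above 0 (median 0.3). The interferon list had 0 of 34 called, with 29 above 0 (median 0.59). The TGFβ pathway list had 0 of 36 called, with 17 above 0 and 19 below (median -0.05). Class 1 MHC genes, cholesterol synthesis and integrin genes also had 0 called, of 20, 24 and 32 tested. Their log2 fold changes were below 0 for 15, 14 and 17 genes (medians -0.3, -0.08 and -0.03). Within glycolysis and hypoxia, *Car9* and *P4ha1* were called higher in liver, 2 of 33 against 0.647% of all genes. With the replicate block *P4ha1* was not called (adjusted p = 0.14). Of the NRF2 and detoxification genes, *Gsta4* (307 to 697 against 164 to 335 CPM) and *Nqo1* (3.07 to 7.75 against 0.466 to 2.42 CPM) were called higher in liver, 2 of 25 against 0.647% of all genes. Neither was called with the replicate block (adjusted p = 0.0615 and 0.0533). Among gastric and mucin genes, *Tff3*, a trefoil factor, was higher in liver at 54 to 116 against 17.3 to 49.7 CPM (call lost in 9 of 25 other settings), and *Cldn18*, the gastric and lung claudin, was higher in lung at 2.15 to 7.78 against 0.925 to 1.5 CPM. Among cytokines, *Il1a* was higher in liver at 20.6 to 71.7 against 3.23 to 20.8 CPM, and *Cxcl17* was higher in lung at 12.6 to 38.6 against 4.54 to 13.2 CPM (adjusted p = 0.0732 with the replicate block, where its call was lost).

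The difference between organs was also compared between days. In edgeR, 1 of 15152 genes (0.0066%) was called for an organ difference that changed between day 7 and day 14 (842 at an unadjusted p under 0.05). DESeq2 called 32. The gene called in edgeR was *Hagh*, a glyoxalase, at 395 CPM in the single liver library of day 7 and 24.7 to 49.2 CPM in the other 3, against 29.6 to 36.2 CPM in lung. With 1 liver library of day 7, the day effect in liver and that library cannot be told apart.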

How the data were processed

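RNA of sorted tumor cells was read from a table of raw counts for 53465 genes. The authors trimmed 75 bp single-end reads with Trimmomatic 0.36, aligned them to GRCm38 with STAR 2.5.3a and deposited counts per gene from featureCounts 1.6.3, per the submitters' notes. The strand setting is not given in the sources used here. Genes were filtered with filterByExpr by organ (a minimum of 10 per library and 15 in total). TMM factors scaled the libraries before the fit in edgeR 4.0.16 (R 4.3.3) with organ and day. The called threshold was a fold over 2 and a Benjamini-Hochberg adjusted p under 0.05 over all genes. Log2 levels used a pseudocount of 0.5 CPM. The gene models are those of the deposited table, and no library pair was identical.

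The members, the 48 gene lists and the tests were chosen with earlier results of these data known. Named genes were called genes with at least 1 CPM in every primary tumor library, in no host list and without overlap, 12 per direction by lowest adjusted p. To these were added 5 per direction of lower primary level by mean CPM, up to 4 called members per tumor list, up to 3 per host list and the line, KLF and RUNX genes. Some items that the rule or the labels name are not reported here. Predicted genes with Gm or Rik names were skipped. Genes named outside this rule were chosen after their values were seen: *Nkx2-1*, *Cldn5*, *Alb*, *Hp*, *Krt19*, *Krt8*, *Rgs5*, *Cd93*, *S1pr1*, *Eng*, *Tbx4*, *Tbx5*, *Rab25*, *Cdh1*, *Epcam*, *Vim*, *Defb1*, *Sfn*, *Pkp1*, *Krt17*, *Krt5*, *Trp63*, *Krt14*, *C3*, *C1s1*, *Lrg1*, *Osmr*, *Reg3g*, *Mki67* and *Hagh*.

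Alternatives were DESeq2 1.42.0, other scalings and filters, no fold threshold, no day term, day 14 alone, the paired-end library, the mouse number as a block, *mt-Co3* as a covariate, 1 fit of 34 libraries and leaving out each library. The comparison without the *mt-Co3* libraries and that in the libraries labelled on were chosen after seeing the data. Deviations of same-numbered liver and lung mice of day 14 correlated at 0.2, 0.4 and 0.27, but some differently numbered pairs did as highly (0.45 for liver 3 with lung 4, and 0.3 for liver 2 with lung 1). The labels state no shared litter or day. The main fit has no block, and values with it are given where they change the call of a gene described. On simulated data of this design, edgeR recovered 74% of genes changed 4-fold and 93% changed 8-fold, with 6 false calls among 15152 genes, and DESeq2 86% and 98%, with 24. The simulated counts were independent between libraries and held no *mt-Co3* subset or cell line difference. These rates therefore need not hold for the real libraries.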

Additional observations from a re-analysis of the deposited data

Results flagged for a closer look

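In 9 of 112 groups of 4 liver or 8 lung libraries examined, 1 library stood apart from the rest of its group by Dixon's test, where chance gives about 5%. In liver, *Htra1* was at 46.34 CPM on day 7 against 86.22 to 91.39 CPM in the other 3 libraries. *Inmt* was at 0.03762 CPM in liver mouse 2 of day 14 against 0.1377 to 0.1541 CPM. Liver mouse 3 of day 14 stood apart in *Nexn* (5.496 CPM against 8.813 to 9.667), *Ptger3* (1.644 against 0.2295 to 0.3762) and *Sftpc* (0.2568 against 0 to 0.023). *Sftpb* had 0.02767 CPM, a single count, in liver mouse 1 of day 14. In lung, *Mcpt2* was at 68.52 CPM in mouse 4 of day 14 against 22.25 to 37.37 CPM. The alveolar macrophage list had a mean log2 level of 2.31 in liver mouse 1 of day 14 against 1.45 to 1.56, and the antigen-presenting list 2.21 in liver mouse 2 against 1.03 to 1.2.

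The organ difference of *Hagh* changed between day 7 and day 14 by -3.6 on the log2 scale (edgeR adjusted p = 0.012), resting on the 1 liver library of day 7. The paired-end liver library, outside the comparison, held 504 summed CPM of acinar markers against 5.37 to 14.7 in the 12 libraries compared, and 23700 of fibroblast and pericyte markers against 144 to 3020.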

How the results depend on the processing

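Against 98 genes called higher in liver and 283 in lung (381 in all), DESeq2 called 263 and 516 (779). An adjusted p alone gave 221 in liver (608 in all), no day covariate 208 (589), one fit of 34 libraries 171 (580), and at least 10 counts in every library 60 and 133 (193). Day 14 alone gave 7 and 21 (28). The replicate block gave 61 in liver, and 49 and 190 of the main calls kept theirs. Leaving out 1 library gave 30 (without lung mouse 1 of day 14) to 199 in liver, 117 (without liver day 7) to 418 in lung and 187 (without liver mouse 2 of day 14) to 617 in all, where 199, 418 and 617 were without liver mouse 3 of day 14. Chosen after seeing the data, the 8 libraries without *mt-Co3* counts gave 266 and 635 (901), and the libraries labelled on 592 and 617 (1209). The lung share of calls was 74.3%, and 62.2% to 84.2% over the settings within the libraries labelled off. Including the paired-end library, 3 called genes changed sign; in the other settings labelled off, 0 did, and in the libraries labelled on 16 of 347 tested had the other sign. A primary level of at least 5 CPM left 42 genes in liver and 58 in lung. The day difference went from 1 gene to 32 in DESeq2 and 0 with the block, and the label difference from 0 to 175 in DESeq2 and 112 with the paired-end library. Of 79 named called genes, 13 kept their call in every setting run within the libraries labelled off, 41 in all of these but day 14 alone and the paired-end library, and 0 reversed.

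Of the genes named here, only those not called changed sign within the libraries labelled off. *Klf6* (-0.01) went to 0 in DESeq2 and with its size factors, 0.04 without a filter and with the paired-end library, 0.03 without day, 0.09 on day 14 and -0.12 to 0.07 without 1 library. *Klf5* went to 0.1 on day 14 and -0.16 to 0.08 without 1 library. *Runx2* went to 0.06 on day 14, 0.14 with the paired-end library, 0.02 in the 8 libraries and -0.46 to 0.09 without 1 library. *Smad4* went to -0.01 with the block and -0.09 without liver mouse 1 of day 14, *Klf4* to -0.08 in the fit of 34 libraries and -0.01 in the 8 libraries, and *Krt14* to -1.14 without liver mouse 3 of day 14, in a range up to 1.77 without 1 library. The causes were not tested. Depth limits genes near 0.0689 to 0.248 CPM, and the median depth was lower in lung.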
